A study of Mus musculus with 16 samples.

Results

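Wild type germline stem (GS) cells of the DBA/2 strain, which are mouse spermatogonial stem cells grown in culture, were compared at 1% and 20% oxygen. These are 4 of the 16 libraries of the study, 2 at each oxygen level, taken by their labels, and the comparison is described over the 14841 of 21924 protein-coding genes that reached 1 CPM, a gene's share of the counted reads scaled to a fixed total, in 2 or more of the 16 libraries. All cells had been derived from testis under 20% oxygen and grew with GDNF and FGF2 on a layer of mouse embryonic fibroblasts. The DBA/2 cells at 1% oxygen had been passaged to new plates and kept in gassed plastic bags with 1% oxygen, 5% CO2 and 94% N2, for 2 days according to the series text. The DBA/2 cells at 20% oxygen are their reference, and neither group carried an engineered allele. For comparison the text also uses wild type cells of a second line on a mixed 129 x C57BL/6 background, called the Hif1a line here, at 1% oxygen (2 libraries) and at 20% (2 libraries). The remaining 8 libraries were Hif1a KO cells of that line at both oxygen levels, and Top1mt KO and wild type cells on a C57BL/6 background at 1% oxygen, and they enter the choice of genes tested and the estimate of the spread between libraries. The labels do not say whether libraries of a group came from separate cultures, derivations or animals, so the p-values measure the spread between these libraries only.

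Cells sense oxygen through prolyl hydroxylases that need it as a substrate. With oxygen present they mark the alpha subunits of the hypoxia-inducible factors (HIF) for destruction by the VHL ubiquitin ligase, and when oxygen is scarce the subunits persist, pair with ARNT and bind DNA at sites with the core ACGTG or GCGTG. The genes switched on this way classically move a cell from respiration towards glycolysis, adjust its pH, slow its mitochondria and send vascular signals. Spermatogonial stem cells keep dividing without differentiating when GDNF acts on the receptor pair GFRA1 and RET, and leave that state on exposure to retinoic acid.

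Depth over all protein-coding genes listed, before the filter, was 20042031 and 22051828 reads at 1% oxygen and 21478642 and 23436895 reads at 20%. Over all 16 libraries it ran from 11942104 to 25659895. One read stood for 0.0427 to 0.0499 CPM in the DBA/2 libraries, and a value of 0 allows up to 0.128 to 0.150 CPM (3 reads, counting error only). Replicates had a Pearson correlation of 0.998 on the log2 scale across genes at each oxygen level, and a chi-square per gene of 2.99 at 1% and 3.49 at 20%, where 1 is counting error alone. All 21 genes listed as GS cell markers were detected in the 4 libraries, with summed levels of 5292 and 5293 CPM at 1% oxygen and 6198 and 6399.6 CPM at 20%, 4 of them higher and 14 lower at 1%. The 25 feeder fibroblast markers were present too and summed to 8849 and 7972 CPM at 1% oxygen and 10431 and 8294 CPM at 20%. The libraries therefore hold RNA of both cell types, and the fibroblast share of each gene's value was not measured. In bulk RNA of this kind, fewer cells of a type and less RNA per cell cannot be told apart. The library names end in S17 and S18 at 1% oxygen and in S13 and S14 at 20%, and what these suffixes mark is not stated in the labels.

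The promoters of 8 genes are shown first, with any HIF core motifs that they hold marked. They are the 250 bases before the RefSeq start in build GRCm38.p6, 5′ to 3′ on the gene's strand, with every ACGTG and GCGTG in capitals on either strand (CACGT and CACGC where the motif lies on the opposite strand). Slc16a3 (chr11:120948817-120949066, plus strand), Muc2 (chr7:141690090-141690339, plus strand) and Adm (chr7:110627407-110627656, plus strand) are the largest rises with an entry in the promoter table. St8sia1 (chr6:142964453-142964702, minus strand) and Sidt1 (chr16:44332839-44333088, minus strand) are the largest falls with an entry. Ankrd37 (chr8:45999851-46000100, minus strand), Ero1l (listed as Ero1a, chr14:45318573-45318822, minus strand) and Bnip3 (chr7:138909507-138909756, minus strand) are classic hypoxia targets added after their values and motifs had been seen.
Slc16a3: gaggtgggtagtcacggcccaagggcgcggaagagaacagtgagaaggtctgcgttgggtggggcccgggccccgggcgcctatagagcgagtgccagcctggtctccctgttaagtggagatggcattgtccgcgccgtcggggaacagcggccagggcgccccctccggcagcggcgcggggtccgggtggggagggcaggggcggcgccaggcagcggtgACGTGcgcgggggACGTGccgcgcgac
Muc2: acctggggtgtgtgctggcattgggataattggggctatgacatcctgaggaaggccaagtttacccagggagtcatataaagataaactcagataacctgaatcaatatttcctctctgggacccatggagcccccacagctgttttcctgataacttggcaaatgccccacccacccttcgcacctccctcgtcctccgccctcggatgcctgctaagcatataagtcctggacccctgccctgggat
Adm: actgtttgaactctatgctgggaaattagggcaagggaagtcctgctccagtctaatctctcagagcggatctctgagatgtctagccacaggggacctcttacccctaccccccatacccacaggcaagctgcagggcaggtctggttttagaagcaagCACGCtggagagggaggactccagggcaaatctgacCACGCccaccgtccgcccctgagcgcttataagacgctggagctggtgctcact
St8sia1: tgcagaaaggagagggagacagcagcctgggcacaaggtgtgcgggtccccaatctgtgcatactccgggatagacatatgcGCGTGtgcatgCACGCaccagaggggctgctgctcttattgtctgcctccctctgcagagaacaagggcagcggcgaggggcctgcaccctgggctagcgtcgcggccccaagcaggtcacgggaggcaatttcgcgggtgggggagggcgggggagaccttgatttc
Sidt1: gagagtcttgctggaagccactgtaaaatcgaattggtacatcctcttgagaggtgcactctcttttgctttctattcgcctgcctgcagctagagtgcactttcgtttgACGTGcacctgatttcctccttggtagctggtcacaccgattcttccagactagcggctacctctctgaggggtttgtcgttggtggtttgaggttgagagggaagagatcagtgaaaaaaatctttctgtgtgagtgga
Ankrd37: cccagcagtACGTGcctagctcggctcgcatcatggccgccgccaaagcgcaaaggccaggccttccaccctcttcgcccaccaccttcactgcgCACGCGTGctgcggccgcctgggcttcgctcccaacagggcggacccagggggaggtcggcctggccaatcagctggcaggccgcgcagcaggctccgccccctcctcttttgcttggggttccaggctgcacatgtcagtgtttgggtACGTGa
Ero1l: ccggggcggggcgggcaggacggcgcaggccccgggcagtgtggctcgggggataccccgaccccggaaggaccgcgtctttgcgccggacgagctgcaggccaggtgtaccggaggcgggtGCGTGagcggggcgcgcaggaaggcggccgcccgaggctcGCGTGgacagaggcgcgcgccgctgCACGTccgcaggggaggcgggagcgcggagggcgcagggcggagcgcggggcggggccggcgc
Bnip3: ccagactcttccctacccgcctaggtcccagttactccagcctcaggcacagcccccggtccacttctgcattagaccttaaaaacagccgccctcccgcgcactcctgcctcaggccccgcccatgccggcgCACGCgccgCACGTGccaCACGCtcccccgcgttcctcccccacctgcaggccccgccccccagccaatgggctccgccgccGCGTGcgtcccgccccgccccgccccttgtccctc

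Slc16a3 held ACGTG at 27 and 14 bases before its start, and Ankrd37 held it at 241 and 6 bases before. In Bnip3 the motif lies in the palindrome CACGTG, which gives ACGTG on both strands, and 3 copies of GCGTG stand around it. No match was found in the Muc2 window, which says only that these letters are not in these 250 bases. Of the tested genes, 11788 matched the promoter table and 9404 of them had a single listed start. Over those, ACGTG was present in the window of 26.3% of the genes at least 2-fold higher at 1% oxygen (60 of 228), 14.3% of those at least 2-fold lower (29 of 203) and 21.6% of all genes tested. The motif stood in 63.2% of the classic hypoxia targets (12 of 19) 30.8% of the glycolysis enzymes (4 of 13), 20% of the 15 largest rises (2 of 10) and 30% of the 15 largest falls (3 of 10), against the 21.6% of all genes tested and 16.3% of all promoters in the table. GCGTG was present in 43.0% of the higher, 34.5% of the lower and 45.0% of all tested genes. These shares describe letters in a window and were not tested.

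At 1% oxygen 4725 genes were higher (31.8% of those tested) and 3789 were lower (25.5%), at a Benjamini-Hochberg adjusted p of 0.05 in limma on log2(CPM + 1). Most of these changes were small: of the 8514 called genes, or 57.4%, 5963 lay under 1.5-fold. The shares of 31.8% and 25.5% are the reference for every count of list members below. The excess of rises depended on the scaling: 4187 were higher and 4183 lower with median-of-ratios scaling, and 4162 and 4226 with TMM. At least 2-fold changes numbered 356 higher (2.4%) and 349 lower (2.35%), at least 4-fold changes 46 and 27, and at least 8-fold changes 9 and 1. The median log2 difference (1% minus 20% oxygen) over all genes was 0.04, with 5% of genes below -0.71 and 5% above 0.79. For 12068 genes (81.3%) the 2 libraries at 1% oxygen did not overlap the 2 at 20%, so that a lack of overlap alone distinguishes no gene here. Precision depended on the level: 66.2% of genes at 100 CPM or more were called and 26.7% of those under 1 CPM, with median standard errors of 0.05 and 0.17 on the log2 scale.

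**Figure D1:**
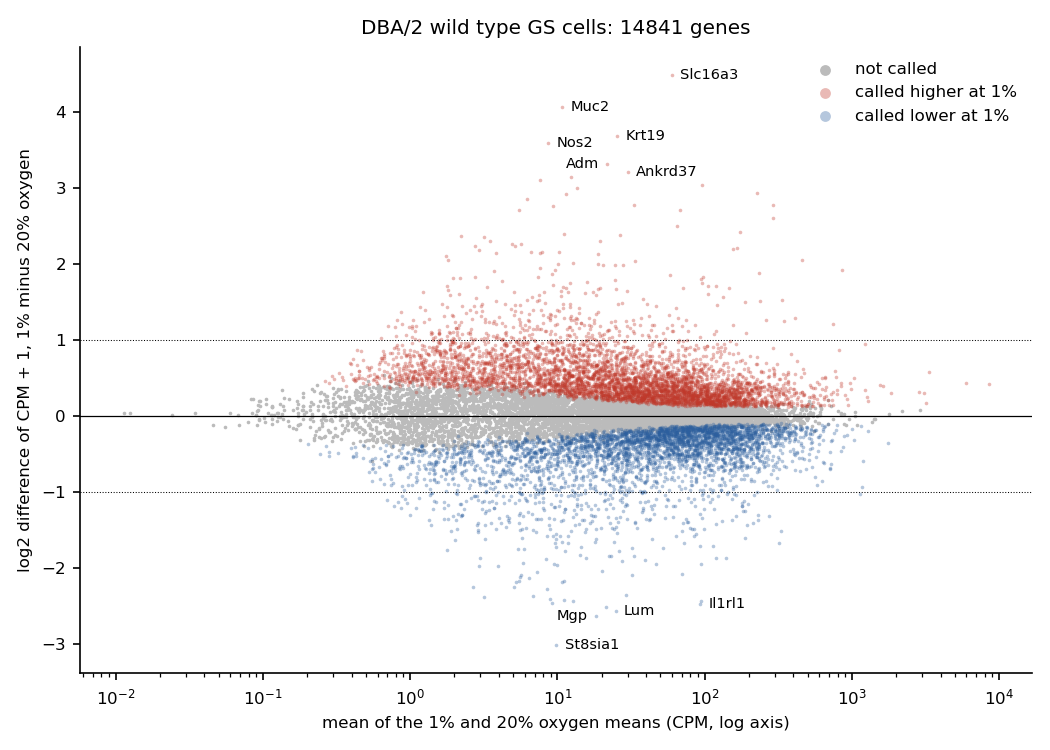
Each point is 1 of the 14841 genes, with its mean level over the 2 oxygen levels (CPM, log axis) against its log2 difference of CPM + 1, 1% minus 20% oxygen; red and blue points were called higher (4725) and lower (3789) at 1%, and dotted lines mark 2-fold. The rises reach 4.47 (Slc16a3), the falls -3.02 (St8sia1), and most called genes lie inside the dotted lines.

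The largest rise was that of Slc16a3, the lactate exporter MCT4, with 120.05 and 111 CPM at 1% oxygen, against 4.52 and 3.97 CPM at 20%. Its log2 difference was 4.47 ± 0.08 (SE of the fit, as with every ± on log2 differences, n = 2 libraries a group, limma adjusted p = 8.0e-19). It was followed by Muc2, the gel-forming mucin of the gut, with 19.06 and 23.5 CPM at 1% oxygen, against 0.419 and 0.256 CPM at 20%, and by Krt19, a keratin of simple epithelia, with 48.9 and 46.8 CPM at 1% oxygen, against 3.21 and 2.43 CPM at 20%. Both libraries at 1% oxygen lay far above both at 20% for each of these genes. Nos2, the inducible nitric oxide synthase, had 15.4 and 18.5 CPM at 1% oxygen, against 0.419 and 0.555 CPM at 20%. Adm, the precursor of the vessel-widening peptide adrenomedullin, had 41.4 and 39.7 CPM at 1% oxygen, against 3.45 and 2.94 CPM at 20%, and Ankrd37, an ankyrin repeat protein, had 55.1 and 54.9 CPM at 1% oxygen, against 5.63 and 4.57 CPM at 20%. The log2 differences of these 5 genes lay between 3.20 and 4.05.

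The remaining 9 of the 15 largest rises lay between 2.76 and 3.14 on the log2 scale. They were Ankrd1 (a stress-induced muscle ankyrin repeat protein), Stc2 (the secreted glycoprotein stanniocalcin 2), the phosphofructokinases Pfkl and Pfkp, the angiogenic factor Pgf, the vascular peptide Apln, the respiratory chain protein Ndufa4l2, the lactate dehydrogenase subunit Ldha, and Car12, a membrane carbonic anhydrase that helps to set pH. Car12 had 60.02 and 56.1 CPM at 1% oxygen, against 7.96 and 7.42 CPM at 20%, and Ankrd1 had 24.5 and 21.6 CPM at 1% oxygen, against 1.68 and 1.79 CPM at 20%. Apln had 23.4 and 18.5 CPM at 1% oxygen, against 1.86 and 1.92 CPM at 20%. In GENCODE M21 on the build mm10, the first 3 are the protein-coding genes Slc16a3 (chromosome 11, 120948480 to 120960868, plus strand), Muc2 (chromosome 7, 141690340 to 141754693, plus strand) and Krt19 (chromosome 11, 100140810 to 100148665, minus strand). The RefSeq start of Slc16a3, before which its promoter was read, lies inside that span. In each of the 15 genes the lower of the 2 libraries at 1% oxygen exceeded the higher one at 20% several times over. Their choice by size and lack of overlap favours this.

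St8sia1, the sialyltransferase that makes the ganglioside GD3, had the largest fall, with 1.40 and 1.36 CPM at 1% oxygen, against 18.4 and 18.1 CPM at 20% and a log2 difference of -3.02 ± 0.15 (limma adjusted p = 4.5e-12). Mgp, a matrix protein that inhibits calcification, had 4.64 and 4.08 CPM at 1% oxygen, against 35.6 and 29.3 CPM at 20%, and Lum, the small matrix proteoglycan lumican, had 7.23 and 5.71 CPM at 1% oxygen, against 46.8 and 39.5 CPM at 20%. Both are on the feeder marker list, described further on. Il1rl1, the receptor for interleukin 33, had 31.7 and 23.4 CPM at 1% oxygen, against 189 and 129 CPM at 20%. Fgd5, an exchange factor for the GTPase CDC42, had 28.7 and 29.2 CPM at 1% oxygen, against 161 and 161 CPM at 20%, with replicates that nearly coincide. In the same annotation St8sia1 (chromosome 6, 142821545 to 142964452, minus strand) and Lum (chromosome 10, 97565128 to 97572703, plus strand) are among the first of the falls.

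Others among the 15 largest falls were Cyp2u1 (a fatty acid hydroxylase), Sidt1 (a membrane protein of the SID-1 family), Ednra (the endothelin A receptor), Itgb8 (an integrin subunit that activates latent TGF-beta), Ifi207 (an interferon-inducible protein), Ccl11 (the chemokine eotaxin), Krt75 (a hair follicle keratin), Hoxb8 (a homeobox factor), Chl1 (a neural cell adhesion molecule) and Pdx1 (a homeobox factor known from the pancreas). Their log2 differences ran from -2.52 to -2.26. Hoxb8 had 8.58 and 9.11 CPM at 1% oxygen, against 49.96 and 49.1 CPM at 20%. Pdx1 had 0.299 and 0.227 CPM at 1% oxygen, against 4.98 and 5.12 CPM at 20%, and Ccl11 had 0.249 and 0.408 CPM at 1% oxygen, against 6.70 and 5.25 CPM at 20%. At 1% oxygen Pdx1 and Ccl11 were under 0.5 CPM, or fewer than 10 reads in each library.

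**Figure D2:**
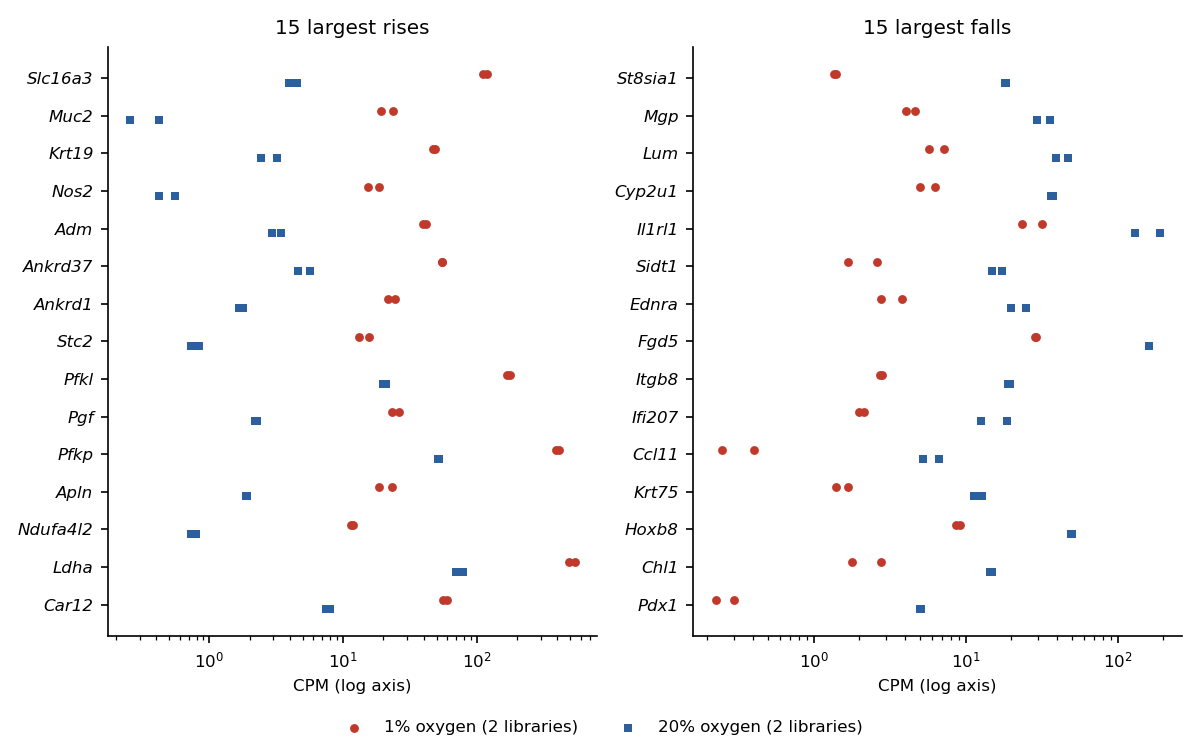
CPM (log axis) of the 15 largest rises and the 15 largest falls, 1 point per library, with 1% oxygen as red circles above 20% oxygen as blue squares. The genes were chosen to have no overlap between groups, so the gap between groups follows from that choice.

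Few genes were near silent at 20% oxygen and clearly expressed at 1%. Of the genes tested, 10 were under 1 CPM in both libraries at 20% oxygen and at 5 CPM or more in both at 1%: Ache, Cox4i2, Gipr, Muc2, Ndufa4l2, Nos2, Prelid2, Rnf225, Selenbp1 and Stc2. Ache, the enzyme that splits acetylcholine, had 6.39 and 5.62 CPM at 1% oxygen, against 0.372 and 0.384 CPM at 20%. Gipr, the receptor of the gut hormone GIP, had 5.74 and 7.07 CPM at 1% oxygen, against 0.978 and 0.981 CPM at 20%. Selenbp1, which oxidises methanethiol, had 7.43 and 6.26 CPM at 1% oxygen, against 0.745 and 0.811 CPM at 20%. In both libraries at 20% oxygen all 10 genes were low but above the limit of 3 reads. In the opposite sense only Ccl11 met the same thresholds.

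The HIF subunits themselves barely moved in RNA. Hif1a had 113 and 104 CPM at 1% oxygen, against 118 and 101 CPM at 20%, which overlap (limma adjusted p = 0.92). Epas1, the HIF2 alpha subunit, had 41.7 and 45.03 CPM at 1% oxygen, against 40.4 and 43.9 CPM at 20%, also with overlapping groups. Of 8 subunits and partners 2 were higher and 1 was lower, namely Hif3a, an inhibitory relative (0.39 ± 0.08), their partner Arnt (0.13 ± 0.05) and the coactivator Crebbp (-0.23 ± 0.05). The call for Arnt was lost under either other scaling, in both count models and without 3 of the 4 DBA/2 libraries. Among 12 oxygen sensors and degradation genes 6 were higher and 3 lower, with a median of 0.31. Egln3 and Egln1, the prolyl hydroxylases that hypoxia itself induces, rose by 1.85 ± 0.06 and 1.45 ± 0.06, whereas the third one, Egln2, stood at -0.17 ± 0.08 and was not called. Vhl, which recognises the hydroxylated subunit, had 74.7 and 78.04 CPM at 1% oxygen, against 52.7 and 54.7 CPM at 20%, and the ubiquitin ligase Siah2, which destabilises the prolyl hydroxylases, had 64.8 and 70.1 CPM at 1% oxygen, against 45.9 and 45.1 CPM at 20%. The asparagine hydroxylase gene Hif1an fell by 0.23 on the log2 scale.

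Known hypoxia targets moved nearly as a whole. Of 36 listed, 35 were higher and 0 lower, 20 of them at least 2-fold, with a median log2 difference of 1.31 against 0.04 over all genes. The exception was the circadian repressor Bhlhe41 (0.02 ± 0.08, not called). Ero1l, the oxidase that drives disulphide formation in the endoplasmic reticulum, had 519 and 478 CPM at 1% oxygen, against 80.2 and 83.3 CPM at 20%. Bnip3, a mitophagy receptor on the outer mitochondrial membrane, had 114 and 107 CPM at 1% oxygen, against 19.2 and 18.6 CPM at 20%. Lox, which crosslinks collagen, had 794 and 674 CPM at 1% oxygen, against 203 and 152 CPM at 20%, and Loxl2 had 239 and 211 CPM at 1% oxygen, against 76.1 and 63.5 CPM at 20%. These genes were several times as high at 1% oxygen. As for 81.3% of all genes tested, their libraries at 1% and 20% oxygen did not overlap. Some textbook targets gave small or low signals: Vegfa, the main angiogenic factor, rose by 0.93 ± 0.09, the zinc finger gene Zfp395 by 0.64 ± 0.07, and Car9, the pH regulator often used as a hypoxia marker, had only 3.29 and 2.81 CPM at 1% oxygen, against 0.372 and 0.640 CPM at 20%. The list was drawn up with earlier results of these data known and serves as a description.

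**Figure D3:**
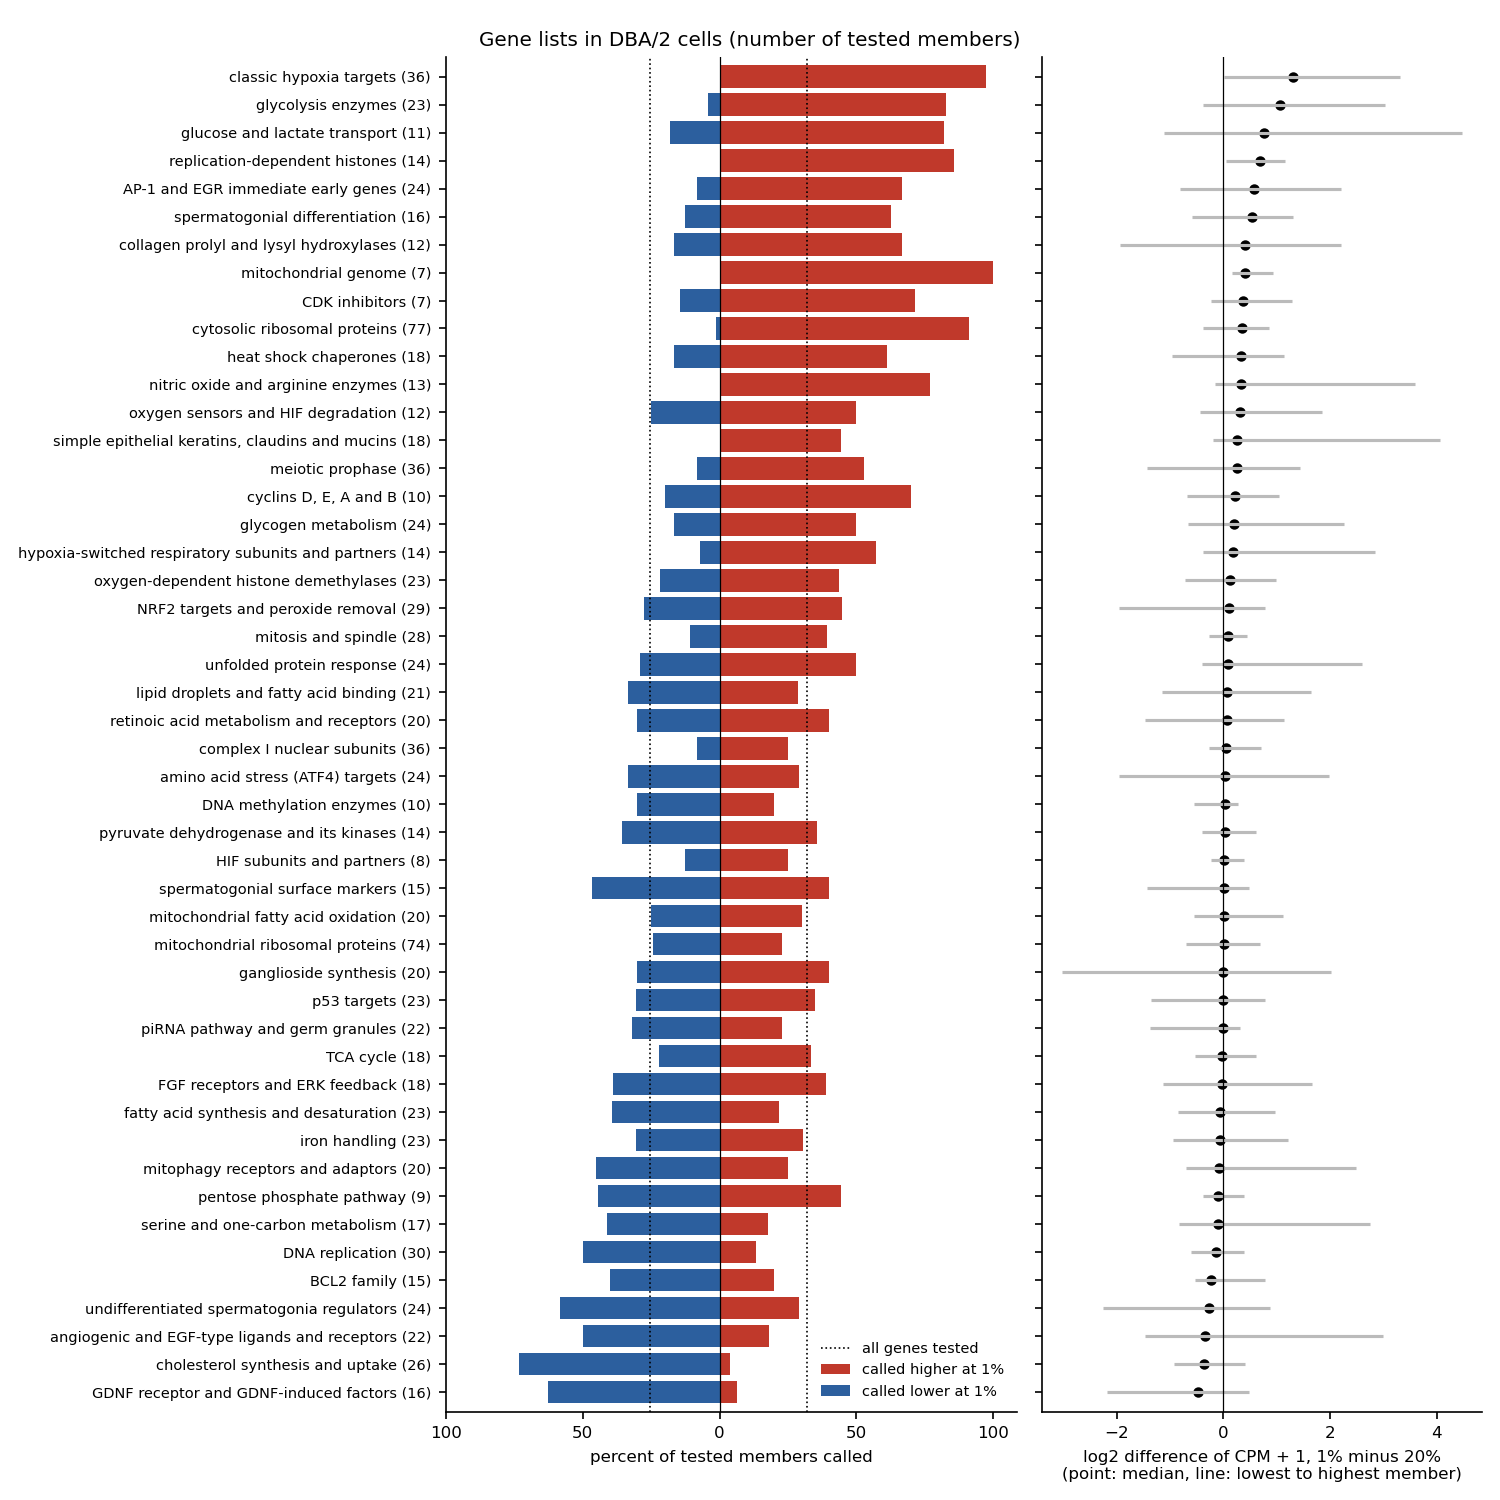
For each of the 48 gene lists, the left panel gives the percent of tested members called higher (red, to the right) and lower (blue, to the left) at 1% oxygen with dotted lines at 31.8% and 25.5% for all genes tested, and the right panel gives the median (point) and the range (line) of the log2 differences of CPM + 1, 1% minus 20%. Hypoxia targets, glycolysis and glucose and lactate transport have the highest medians, and the GDNF and cholesterol lists the lowest.

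Most transcripts of glucose transporters, glycolytic enzymes and lactate carriers were higher at 1% oxygen. Of 11 glucose and lactate transport genes 9 were higher and 2 lower (median 0.77). Slc2a1, the widespread glucose transporter, had 378 and 363 CPM at 1% oxygen, against 102 and 98.5 CPM at 20%. Slc2a3, a glucose transporter of high affinity, had 294 and 263 CPM at 1% oxygen, against 94.8 and 101 CPM at 20%. Bsg, the chaperone that brings lactate carriers to the membrane, had 593 and 566 CPM at 1% oxygen, against 241 and 233 CPM at 20%, while Emb, the other such chaperone, fell (-0.99 ± 0.07), as did the transporter Slc2a12 (-1.12 ± 0.15). Of 23 glycolysis enzymes 19 were higher and 1 lower, 12 of them at least 2-fold (median 1.07). Among the subunits of phosphofructokinase, the committing enzyme, Pfkp had 410.2 and 389.8 CPM at 1% oxygen, against 51.4 and 52.3 CPM at 20%, and Pfkl had 176 and 169 CPM at 1% oxygen, against 19.7 and 20.9 CPM at 20%. The muscle-type subunit Pfkm rose by only 0.16 ± 0.06.

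Aldoa (aldolase) had 1357 and 1344 CPM at 1% oxygen, against 360.2 and 356 CPM at 20%, and Tpi1 (triosephosphate isomerase) had 304 and 285 CPM at 1% oxygen, against 57.3 and 51.8 CPM at 20%. Ldha, which turns pyruvate into lactate, had 539 and 486 CPM at 1% oxygen, against 78.8 and 69.4 CPM at 20%, whereas Ldhb, the subunit that favours the reverse reaction, was the one enzyme lower, with 49.5 and 53.6 CPM at 1% oxygen, against 67.5 and 67.1 CPM at 20%. Within each isozyme family the members differed: hexokinase Hk1 rose by 1.11 ± 0.05 and Hk2 by 0.22 ± 0.05, and of the genes that make the phosphofructokinase activator Pfkfb3 rose by 1.68 ± 0.07 while Pfkfb2 and Pfkfb4 were not called (0.10 ± 0.11 and 0.24 ± 0.12). Several of these genes, Gapdh, Ldha, Tpi1, Pgk1 and Pgam1 among them, have many processed pseudogenes, and the handling of multiply aligned reads is not stated in the labels.

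Glycogen genes were higher on balance, led by genes that act in building the polymer. Of 24 genes 12 were higher and 4 lower (median 0.21). Gbe1, the branching enzyme, had 56.5 and 52.5 CPM at 1% oxygen, against 13.4 and 11.7 CPM at 20%, and Ppp1r3b, which brings a phosphatase to glycogen and activates its synthesis, had 9.03 and 8.57 CPM at 1% oxygen, against 1.21 and 0.896 CPM at 20%. Pgm1, which makes glucose 1-phosphate, rose by 0.94 ± 0.05, and the synthase Gys1 rose by 1.12 ± 0.07. The phosphorylase Pygb, which breaks glycogen down, fell (-0.66 ± 0.04), while its liver form Pygl rose by 0.22 ± 0.05.

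Of 14 genes of pyruvate dehydrogenase and its regulators 5 were higher and 5 lower (median 0.03), against 31.8% and 25.5% of all genes tested. Pdk1, a kinase that blocks the complex and is a known HIF1 target, was slightly lower, with 137 and 136 CPM at 1% oxygen, against 146 and 158 CPM at 20%, a call lost without replicate 2 of either group. Pdk3, another of these kinases, had 109 and 102 CPM at 1% oxygen, against 67.8 and 69.7 CPM at 20%, and Dlat, the acetyltransferase core, rose by 0.51 ± 0.05. Of 18 TCA cycle genes 6 were higher and 4 lower, shares near those over all genes, and 4 were higher with median-of-ratios scaling and 3 with TMM. Ogdh, which decarboxylates 2-oxoglutarate, had 158 and 156 CPM at 1% oxygen, against 231 and 223 CPM at 20%, and Idh2, the mitochondrial NADP-linked isocitrate dehydrogenase, had 13.8 and 13.2 CPM at 1% oxygen, against 8.47 and 8.62 CPM at 20%. Of 9 pentose phosphate genes 4 were higher and 4 lower, with G6pdx, the entry enzyme, rising by 0.39 ± 0.06 and Pgd falling (-0.38 ± 0.05).

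In the respiratory chain, 8 of 14 tested hypoxia-switched subunits and partners were higher and 1 was lower, Cox6a1 (-0.38 ± 0.05), against 3 lower with either other scaling. Both subunits best known to rise in hypoxia did so, and their usual counterparts did not pass the test. Cox4i2, the hypoxic form of cytochrome oxidase subunit 4, had 5.89 and 5.03 CPM at 1% oxygen, against 0.419 and 0.427 CPM at 20%. Its counterpart Cox4i1 had 389 and 410.4 CPM at 1% oxygen, against 389 and 379.7 CPM at 20% (limma adjusted p = 0.38). Ndufa4l2, a relative of Ndufa4 that dampens respiration in hypoxic cells, had 11.8 and 11.5 CPM at 1% oxygen, against 0.791 and 0.725 CPM at 20%, while Ndufa4 had 90.3 and 84.8 CPM at 1% oxygen, against 92.8 and 90.1 CPM at 20% (limma adjusted p = 0.32). Of 36 nuclear complex I subunits 9 were higher and 3 lower, with a median of 0.05 that is close to that of all genes. With median-of-ratios scaling 7 were higher and 6 lower, and with TMM 7 and 7. The 7 tested genes of the mitochondrial genome were all higher, with a median of 0.41: mt-Nd5 rose by 0.57 ± 0.09, mt-Nd6, the one encoded on the light strand, by 0.92 ± 0.12, and mt-Nd1 by 0.17 ± 0.07. With either other scaling 6 of the 7 were higher. The other 6 mitochondrial protein genes are listed at 0 in every DBA/2 library and give no value. Top1mt, the mitochondrial topoisomerase, had 40.3 and 43.03 CPM at 1% oxygen, against 51.6 and 57.1 CPM at 20% and fell by 0.37 on the log2 scale.

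Of 20 mitophagy genes 5 were higher and 9 lower, against 31.8% and 25.5% of all genes tested. Bnip3 and its relative Bnip3l (0.69 ± 0.05) rose, while the autophagy kinase Ulk1, with 108 and 121 CPM at 1% oxygen, against 186 and 187 CPM at 20%, and the adaptor Sqstm1 (-0.28 ± 0.05) were among those lower. The mitochondrial kinase gene Pink1 was not called (0.02 ± 0.08).

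Genes of cholesterol synthesis were lower on balance at 1% oxygen. Of 26 genes of cholesterol synthesis and uptake 1 was higher and 19 were lower, none by as much as 2-fold (median -0.37). Lss, which closes the sterol rings, had 104 and 108 CPM at 1% oxygen, against 192 and 191 CPM at 20%, and Hmgcs1, an early enzyme of the pathway, had 336 and 339 CPM at 1% oxygen, against 470.1 and 471 CPM at 20%. The regulator Srebf2 fell by 0.35 on the log2 scale, and Insig2, a hypoxia-induced protein that restrains sterol synthesis, rose by 0.51 ± 0.07. Of 23 genes of fatty acid synthesis 5 were higher and 9 lower (median -0.06, against 0.04 over all genes), and among those lower were Fasn, the fatty acid synthase, with 419.9 and 472 CPM at 1% oxygen, against 797 and 818 CPM at 20%, and Acaca, which makes its substrate (-0.60 ± 0.06).

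Of 21 tested lipid droplet and fatty acid binding genes 6 were higher and 7 lower, shares near those over all genes. Of the carriers of fatty acids in the cytosol, Fabp5 had 16.02 and 17.1 CPM at 1% oxygen, against 5.12 and 4.14 CPM at 20%, and Fabp3 had 9.08 and 8.07 CPM at 1% oxygen, against 2.33 and 2.65 CPM at 20%. G0s2, an inhibitor of lipolysis, was higher (1.23 ± 0.17), and the lipases' genes Lipe (-0.77 ± 0.10) and Pnpla2 (-0.20 ± 0.07) were lower. Lpin1, a phosphatidate phosphatase, had 109 and 113 CPM at 1% oxygen, against 252 and 242 CPM at 20%. In mitochondrial fatty acid oxidation 6 of 20 were higher and 5 lower, again near the shares over all genes. Hadh had 37.02 and 35.4 CPM at 1% oxygen, against 17.04 and 15.4 CPM at 20%, and Cpt1a, which admits fatty acids to mitochondria, fell (-0.35 ± 0.04).

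Of 23 iron genes 7 were higher and 7 lower, shares near those over all genes (31.8% and 25.5%). The transferrin receptor gene Tfrc, by which cells take up iron, was at 1065 and 1008 CPM at 1% oxygen, against 432 and 462 CPM at 20%, and Fbxl5, the iron-sensing ligase subunit that destroys IREB2, had 140.2 and 133 CPM at 1% oxygen, against 217 and 220.2 CPM at 20%. Of 29 NRF2 targets and peroxide-removing genes 13 were higher and 8 lower. Gclm, a subunit of the enzyme that begins glutathione synthesis, had 158 and 163 CPM at 1% oxygen, against 93.6 and 92.7 CPM at 20%, while the cystine importer Slc7a11 had 3.29 and 3.22 CPM at 1% oxygen, against 17.9 and 13.5 CPM at 20%. The extracellular superoxide dismutase gene Sod3 had 12.6 and 12.1 CPM at 1% oxygen, against 43.8 and 32.6 CPM at 20%. The NRF2 gene Nfe2l2 itself was lower (-0.36 ± 0.05).

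Amino acid and one-carbon genes did not move as a block. Of 24 ATF4 targets 7 were higher and 8 lower, against 31.8% and 25.5% of all genes tested. Of 17 serine and one-carbon genes 3 were higher and 7 lower. Aldh1l2, the mitochondrial enzyme that oxidises formyl-tetrahydrofolate, had 18.9 and 15.1 CPM at 1% oxygen, against 1.40 and 1.92 CPM at 20%. Shmt2, which makes glycine from serine in mitochondria, had 125 and 139 CPM at 1% oxygen, against 231 and 241 CPM at 20%, and Phgdh, which starts serine synthesis, had 119 and 125 CPM at 1% oxygen, against 192 and 199 CPM at 20%. The stress-induced factor Atf3 had 29.8 and 30.1 CPM at 1% oxygen, against 9.31 and 8.11 CPM at 20%, whereas Atf4 was not called (-0.12 ± 0.05).

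Enzymes that use oxygen as a substrate were described separately. Of 12 collagen prolyl and lysyl hydroxylase genes 8 were higher and 2 lower (median 0.41). Of the catalytic subunits of collagen prolyl 4-hydroxylase, P4ha1 had 265 and 244 CPM at 1% oxygen, against 59.6 and 50.1 CPM at 20%, and P4ha2 had 156 and 149 CPM at 1% oxygen, against 44.2 and 40.4 CPM at 20%. Plod2, a lysyl hydroxylase, had 364 and 339.5 CPM at 1% oxygen, against 124 and 122 CPM at 20%, whereas P3h2, a prolyl 3-hydroxylase, had 2.10 and 1.59 CPM at 1% oxygen, against 9.78 and 9.98 CPM at 20%. Of 23 histone demethylases of the oxygen-dependent family 10 were higher and 5 lower, against 31.8% and 25.5% of all genes tested. Kdm3a, a known HIF target, rose by 0.68 ± 0.05, Kdm7a by 0.91 ± 0.06 and Kdm4c by 0.99 ± 0.09. Kdm6b, which removes the repressive H3K27 methyl marks, had 298 and 321 CPM at 1% oxygen, against 511 and 511 CPM at 20%, and its relative Kdm6a had 52.04 and 49.1 CPM at 1% oxygen, against 31.3 and 31.7 CPM at 20%, so that the 2 relatives moved in opposite directions. Of 10 DNA methylation and demethylation genes 2 were higher and 3 lower, with 0 higher under either other scaling, and the maintenance methyltransferase gene Dnmt1 was at 553 and 572 CPM at 1% oxygen, against 686 and 717 CPM at 20%.

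Some nitric oxide, arginine and epithelial genes were among those with large rises. Of 13 nitric oxide and arginine genes 10 were higher and 0 lower, against 31.8% and 25.5% of all genes tested. Only 2 were at least 2-fold higher (median 0.33), and with either other scaling 9 were higher and 1 lower. Besides Nos2, Arg1, which competes with it for arginine, had 3.04 and 3.49 CPM at 1% oxygen, against 0.279 and 0.427 CPM at 20%, and Odc1, which starts polyamine synthesis, rose by 0.62 ± 0.05. Nos1, the neuronal enzyme, was not called (-0.16 ± 0.07). Of 18 tested genes of simple epithelia 8 were higher, 5 of them at least 2-fold, 0 were lower and 10 were not called. Apart from Muc2 and Krt19 these included Elf3, an epithelial transcription factor, with 9.43 and 10.5 CPM at 1% oxygen, against 1.26 and 1.32 CPM at 20%, and the claudins Cldn3, Cldn4, Cldn6 and Cldn7, of which Cldn4 had 18.6 and 25.1 CPM at 1% oxygen, against 10.2 and 10.5 CPM at 20%. The keratin partners Krt8 (-0.20 ± 0.15) and Krt18 (-0.17 ± 0.09) were not called, nor were Muc1, Muc13 and Muc20. The 10 keratinocyte markers summed to 23.0 and 22.9 CPM at 1% oxygen against 21.1 and 19.3 CPM at 20%, with Krt14 at 0.1 CPM or less in every library.

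Ganglioside synthesis genes moved both ways. Of 20 tested 8 were higher and 6 lower, against 31.8% and 25.5% of all genes tested. Ugcg, which makes the first glycolipid of the route, had 159 and 138 CPM at 1% oxygen, against 81.7 and 75.2 CPM at 20%, and St3gal5, which makes GM3, rose by 0.49 ± 0.08. St8sia1, which acts on GM3, and B4galnt1 (-0.62 ± 0.11), which competes for it, were lower. B3gnt5, which starts the separate lacto series, had 20.96 and 21.1 CPM at 1% oxygen, against 4.56 and 4.35 CPM at 20%.

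In the vascular and EGF ligand list 4 of 22 were higher and 11 lower (median -0.33). The 4 were the ligands Pgf, Vegfa and Vegfb (0.55 ± 0.09), and the receptor Flt4, at 8.63 and 9.34 CPM at 1% oxygen, against 3.86 and 3.71 CPM at 20%. Both other VEGF receptor genes were lower: Flt1 had 56.4 and 50.7 CPM at 1% oxygen, against 109.6 and 104 CPM at 20%, and Kdr had 9.68 and 9.11 CPM at 1% oxygen, against 16.99 and 17.4 CPM at 20%. Ereg, an EGF-like ligand, had 47.7 and 35.3 CPM at 1% oxygen, against 134 and 101 CPM at 20%, and the receptor Erbb3 had 138 and 146 CPM at 1% oxygen, against 241 and 249 CPM at 20%. The 8 endothelial markers summed to 69.7 and 68.7 CPM at 1% oxygen and 63.0 and 62.5 CPM at 20%.

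Genes that mark the undifferentiated state of spermatogonia were lower on balance. Of 16 genes of the GDNF receptor and the factors that GDNF induces, 1 was higher and 10 were lower, 5 of them at least 2-fold (median -0.47). Of the receptor genes, Gfra1 had 114 and 104 CPM at 1% oxygen, against 245 and 257 CPM at 20%, and Ret had 199 and 194 CPM at 1% oxygen, against 368 and 384 CPM at 20%. T (brachyury), a factor that GDNF signalling induces, had 3.34 and 3.40 CPM at 1% oxygen, against 19.2 and 18.5 CPM at 20%, and Bcl6b, a repressor required for self-renewal, had 112 and 108 CPM at 1% oxygen, against 259 and 271 CPM at 20%. Lhx1 had 22.5 and 21.6 CPM at 1% oxygen, against 56.9 and 59.1 CPM at 20%, whereas Pou3f1, in the same GDNF-induced group, was not called (0.02 ± 0.07). Ncam1, a cell adhesion molecule that also binds GDNF, was the one gene higher.

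Of 24 regulators of undifferentiated spermatogonia 7 were higher and 14 lower. Zbtb16 (PLZF), required for long-term maintenance, had 165 and 178 CPM at 1% oxygen, against 486 and 498 CPM at 20%. Eomes, a T-box factor of the most primitive spermatogonia, had 11.2 and 10.5 CPM at 1% oxygen, against 42.04 and 45.4 CPM at 20%, and Nanos2, an RNA-binding protein that blocks differentiation, had 3.09 and 4.44 CPM at 1% oxygen, against 13.6 and 12.7 CPM at 20%. The transcription factor gene Sall4 was less affected (-0.45 ± 0.05). Among the genes higher were Upp1 (0.68 ± 0.12) and Rhox10, a homeobox factor needed to found the stem cell pool, with 22.6 and 19.9 CPM at 1% oxygen, against 10.1 and 12.2 CPM at 20%. Neurog3, a marker of early progenitors, was also higher, at 1.75 and 1.68 CPM at 1% oxygen, against 0.605 and 0.427 CPM at 20%.

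FGF signalling genes went in both directions. Of 18 tested 7 were higher and 7 lower, against 31.8% and 25.5% of all genes tested. The ERK phosphatase genes Dusp4, Dusp5 and Dusp6 were lower, Dusp4 with 23.1 and 21.6 CPM at 1% oxygen, against 53.4 and 47.4 CPM at 20% and Dusp6 with 193 and 182 CPM at 1% oxygen, against 283 and 282 CPM at 20%, and so was the feedback inhibitor Spry4 (-0.70 ± 0.08), while Spry1 was higher (0.62 ± 0.10). Fgfr3 had 27.4 and 31.5 CPM at 1% oxygen, against 8.89 and 8.23 CPM at 20%, whereas Fgfr1 fell slightly (-0.30 ± 0.06). Among 15 surface markers 6 were higher and 7 lower, against the same shares of all genes tested. Cd44 had 70.5 and 58.4 CPM at 1% oxygen, against 196 and 156 CPM at 20%, and Mcam, an adhesion molecule of early spermatogonia, had 605 and 582 CPM at 1% oxygen, against 824 and 832 CPM at 20%. Thy1 and Itga6, both used to enrich stem cells, fell slightly (-0.35 ± 0.09 and -0.29 ± 0.07), Thy1 being a fibroblast marker as well, and Epcam was at 240.3 and 241 CPM at 1% oxygen, against 239 and 238 CPM at 20%, with no call.

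Genes of differentiation and meiotic entry were higher on balance. Of 16 differentiation genes 10 were higher and 2 lower (median 0.53). Stra8, the retinoic acid-induced gatekeeper of meiosis, had 156 and 166 CPM at 1% oxygen, against 85.9 and 87.9 CPM at 20%, and the related transcription factor genes of early differentiation went apart, since Sohlh2 rose by 0.58 ± 0.07 and Sohlh1 fell (-0.58 ± 0.08). Dmrtb1, which controls the switch from mitosis to meiosis, had 13.4 and 15.1 CPM at 1% oxygen, against 5.21 and 5.03 CPM at 20%. Kit, the receptor most used to mark differentiating spermatogonia, was slightly lower (-0.15 ± 0.06), and the gene of its ligand, Kitl, was higher, with 25.1 and 24.3 CPM at 1% oxygen, against 13.4 and 10.7 CPM at 20%. In the retinoic acid pathway 8 of 20 were higher and 6 lower, against 31.8% and 25.5% of all genes tested. Cyp26b1, which degrades retinoic acid, had 11.2 and 10.02 CPM at 1% oxygen, against 5.21 and 3.46 CPM at 20%, and Aldh1a3, which makes it, had 2.79 and 2.68 CPM at 1% oxygen, against 10.5 and 8.36 CPM at 20%. The receptor genes were mixed, with Rarb higher (0.84 ± 0.19) and Rara lower (-0.39 ± 0.08).

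Of 36 meiotic prophase genes 19 were higher and 3 lower (median 0.25). With median-of-ratios or TMM scaling 15 were higher and 4 lower, and the count higher ranged from 12 to 21 over the alternative settings. Meioc and Ythdc2, which act together to prolong prophase, differed in size: Meioc had 65.9 and 72.7 CPM at 1% oxygen, against 24.5 and 25.003 CPM at 20%, and Ythdc2 rose by 0.17 ± 0.07. The meiotic cohesin Rec8 had 58.2 and 61.6 CPM at 1% oxygen, against 24.1 and 22.998 CPM at 20%, and the synaptonemal complex genes Sycp2 (0.73 ± 0.07) and Sycp3 (0.57 ± 0.10) rose. Spo11, which cuts DNA to start recombination, went the other way, with 3.84 and 4.72 CPM at 1% oxygen, against 12.8 and 13.6 CPM at 20%, and its partners Mei1, Mei4 and Rec114 were not called. Of 22 piRNA and germ granule genes 5 were higher and 7 lower, against 31.8% and 25.5% of all genes tested. Spocd1, which links piRNAs to DNA methylation, had 22.3 and 23.2 CPM at 1% oxygen, against 57.1 and 64.3 CPM at 20%, and the helicase gene Tdrd9 had 88.3 and 102 CPM at 1% oxygen, against 173 and 178 CPM at 20%. The germ cell genes Ddx4 and Dazl were slightly higher (0.21 ± 0.06 and 0.20 ± 0.06).

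**Figure D4:**
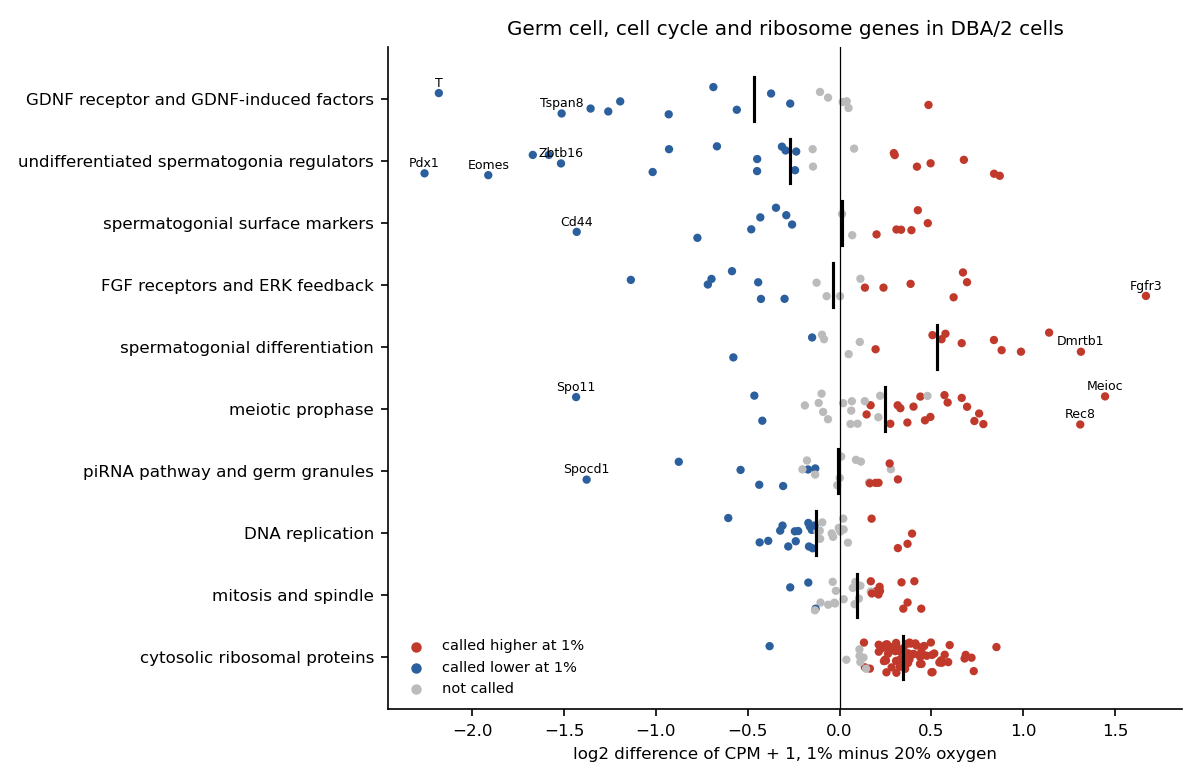
Log2 difference of CPM + 1, 1% minus 20% oxygen, for each tested member of 10 lists, 1 point per gene (red called higher, blue called lower, grey not called) with a black bar at the list's median. The GDNF list is centred at -0.47, the differentiation list at 0.53, and the cytosolic ribosomal proteins lie in a narrow band around 0.35.

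Of 10 cyclins 7 were higher and 2 lower. Ccnd2, the D cyclin that GDNF induces in these cells, had 569 and 514 CPM at 1% oxygen, against 879 and 865 CPM at 20%, whereas Ccne1, which acts at entry into S phase, had 59.7 and 67.1 CPM at 1% oxygen, against 29.2 and 31.1 CPM at 20%. Of 7 CDK inhibitors 5 were higher and 1 lower, led by Cdkn1c (p57), with 91.1 and 97.4 CPM at 1% oxygen, against 38.3 and 37.8 CPM at 20%. Of 30 DNA replication genes 4 were higher and 15 lower (median -0.13), Pole, a replicative polymerase, by the most, with 206 and 209.6 CPM at 1% oxygen, against 309.9 and 324 CPM at 20%. Of 28 mitosis genes 11 were higher and 3 lower (median 0.10), and the proliferation marker Mki67 had 323 and 321 CPM at 1% oxygen, against 239 and 259 CPM at 20%. The count of lower replication genes ranged from 8 to 18 over the alternative settings. With median-of-ratios scaling 9 mitosis genes were higher and 4 lower, and with TMM 9 and 5. Of 14 tested replication-dependent histone genes 12 were higher and 0 lower (median 0.68). These messages mostly lack a poly(A) tail and the libraries were made for polyadenylated RNA, and 11 of the 14 lay under 5 CPM throughout. Hist1h2bc had 21.4 and 19.4 CPM at 1% oxygen, against 11.4 and 10.6 CPM at 20%. The count of higher histone genes ranged from 4 to 15 and their median from 0.39 to 1.53 over the alternative settings, 1 of which drops the filter and so tests more of them.

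Cytosolic ribosomal protein genes rose by small amounts. Of 77 cytosolic ribosomal proteins 70 were higher and 1 was lower (median 0.35). Of 74 mitochondrial ribosomal proteins 17 were higher and 18 lower (median 0.00), but 13 were higher and 24 lower with either other scaling. Rps4x had 183 and 167 CPM at 1% oxygen, against 98.004 and 94.6 CPM at 20%, and Rpl3 had 523 and 529 CPM at 1% oxygen, against 320.4 and 318 CPM at 20%. Rps10 was the one lower. Many ribosomal protein genes have processed pseudogenes, so single values are uncertain. With median-of-ratios and TMM scaling 68 cytosolic ones were higher, and their count ranged from 63 to 73 over all settings.

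Stress genes gave a mixed picture. Of 24 immediate early genes 16 were higher and 2 lower (median 0.58), with Fos at 249 and 302 CPM at 1% oxygen, against 58.2 and 59.4 CPM at 20%, and Nr4a1 (-0.49 ± 0.08) and Nr4a3 (-0.82 ± 0.14) lower. These genes answer to growth factors and to the handling of cells within minutes, and the part of handling was not tested. Of 18 heat shock chaperones 11 were higher and 3 lower, with the near-identical pair Hspa1a and Hspa1b (0.74 ± 0.13 and 1.13 ± 0.07) among those higher, for which reads can be split between the copies. Of 24 unfolded protein response genes 12 were higher and 7 lower, and apart from Ero1l none of those higher reached 2-fold. Hspa5 (BiP) had 768 and 742 CPM at 1% oxygen, against 585 and 581 CPM at 20%, and the sensor genes Ern1 (-0.41 ± 0.07), Eif2ak3 (-0.35 ± 0.06) and Atf6 (-0.19 ± 0.05) were lower. Of 23 p53 targets 8 were higher and 7 lower, shares near those over all genes. Among them the death receptor Fas had 4.69 and 5.12 CPM at 1% oxygen, against 15.7 and 12.6 CPM at 20%. Trp53 itself was lower (-0.48 ± 0.05). Of 15 BCL2 family genes 3 were higher and 6 lower, against 31.8% and 25.5% of all genes tested.

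The fibroblast markers did not move as a block. Of the 25 feeder markers 3 were higher and 12 lower, with a median of -0.21. Vim and Fn1 were not called, and Fn1 had 2382 and 2084 CPM at 1% oxygen, against 2405 and 1899 CPM at 20%. Lower were Col6a1, Col6a2 and Col6a3, the chains of collagen VI, with 95.7 and 89.1 CPM at 1% oxygen, against 317 and 254 CPM at 20% for Col6a3. Higher were Acta2, Tagln and Ccn2, genes of contractile cells and of the matrix response, with 94.6 and 74.8 CPM at 1% oxygen, against 38.1 and 34.3 CPM at 20% for Tagln. Changes in genes that fibroblasts express strongly, such as Lox, Plod2, the collagen hydroxylases, Lum and Mgp, stand beside this list, and the part of the feeders in them was not tested. Markers of other cells stayed low: 12 Sertoli cell markers summed to 71.2 and 70.1 CPM at 1% oxygen and 78.3 and 76.7 CPM at 20%, 8 Leydig cell markers to 6.34 and 6.26 CPM at 1% oxygen and 4.56 and 5.63 CPM at 20%, with Hsd3b1 at 0 in all 4 libraries, and 11 leukocyte markers to 25.4 and 24.3 CPM at 1% oxygen and 33.1 and 26.5 CPM at 20%.

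The oxygen response of DBA/2 cells was then set against that of the Hif1a-line wild type cells, which share no library with it. The difference of the responses (DBA/2 minus Hif1a line) was called for 46% of genes, 4582 higher (30.9%) and 2248 lower (15.1%), with a median of 0.13. The split depended on the scaling: 67.1% of called differences were higher in the CPM as deposited, 48.5% with median-of-ratios scaling and 47.5% with TMM, where the median was 0.01. Single differences of the size of that shift are therefore not read here. At least 2-fold rises were shared by 86 genes, 24.2% of the 356 in DBA/2 cells and 18.7% of the 459 in the Hif1a line (3.09% of genes tested). At least 2-fold falls were shared by 66 genes, 18.9% of the 349 in DBA/2 cells and 28.6% of the 231 in the Hif1a line (1.56% of genes tested). Conversely, 30 genes were at least 2-fold lower in DBA/2 cells and at least 2-fold higher in the Hif1a line, and 5 the other way round. For 271 of the 356 rises and 277 of the 349 falls the difference itself was called.

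Of the 30 genes with the largest changes, 27 differed between the lines in limma, of which Stc2, Apln and Car12 lost the call under some alternative settings. Krt19 differed the most among the rises, at 3.68 ± 0.14 in DBA/2 cells and 0.47 ± 0.14 in the Hif1a line (difference 3.21 ± 0.19, limma adjusted p = 1.2e-10). Pfkp rose by 2.92 ± 0.05 against 1.06 ± 0.05, and Ankrd1 by 3.14 ± 0.10 against 0.80 ± 0.10. Nos2 and Ndufa4l2 rose less in DBA/2 cells, by 3.59 ± 0.14 against 5.17 ± 0.14 and by 2.85 ± 0.13 against 5.04 ± 0.13. Their levels at 1% oxygen were 16.9 and 11.6 CPM in DBA/2 cells, against 55.3 and 64.8 CPM in the Hif1a line. Adm had nearly the same difference in both lines, 3.31 ± 0.09 and 3.37 ± 0.09 (limma adjusted p = 0.75, with a standard error of the difference of 0.13), and so had Mgp and Hoxb8 among the falls.

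Lum and Chl1 went in opposite directions. Lum differed by -2.56 ± 0.10 between oxygen levels in DBA/2 cells and by 2.14 ± 0.10 in the Hif1a line, and Chl1 by -2.28 ± 0.13 and 3.22 ± 0.13. Itgb8, Ifi207 and Ccl11 were lower at 1% oxygen in DBA/2 cells and were not called in the Hif1a line. The median log2 difference of the 25 feeder markers was -0.21 in DBA/2 cells and 1.04 in the Hif1a line, and its part in these differences was not tested. The lines also differ in strain background. The library names of the Hif1a line at 1% oxygen carry a mark "6d" that the DBA/2 names lack. Those of the libraries on a C57BL/6 background at 1% oxygen carry "2d". The series text gives 2 days for the culture at 1% oxygen. Strain, derivation, feeder content and any difference in culture time cannot be told apart. The median of the hypoxia targets was 1.31 in DBA/2 cells and 1.53 in the Hif1a line, while the median of the gene-by-gene differences (DBA/2 minus Hif1a line) was 0.16. The median of the GDNF list was -0.47 in DBA/2 cells and -0.44 in the Hif1a line, with a median gene-by-gene difference of -0.14. Glycolysis enzymes had a median of 1.07 in DBA/2 cells and 0.62 in the Hif1a line (gene-by-gene 0.48). Differentiation genes had 0.53 in DBA/2 cells and -0.03 in the Hif1a line (gene-by-gene 0.24), and cholesterol genes -0.37 in DBA/2 cells and 0.20 in the Hif1a line (gene-by-gene -0.55). Over all genes the median difference was 0.13, and these list values were not tested.

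**Figure D5:**
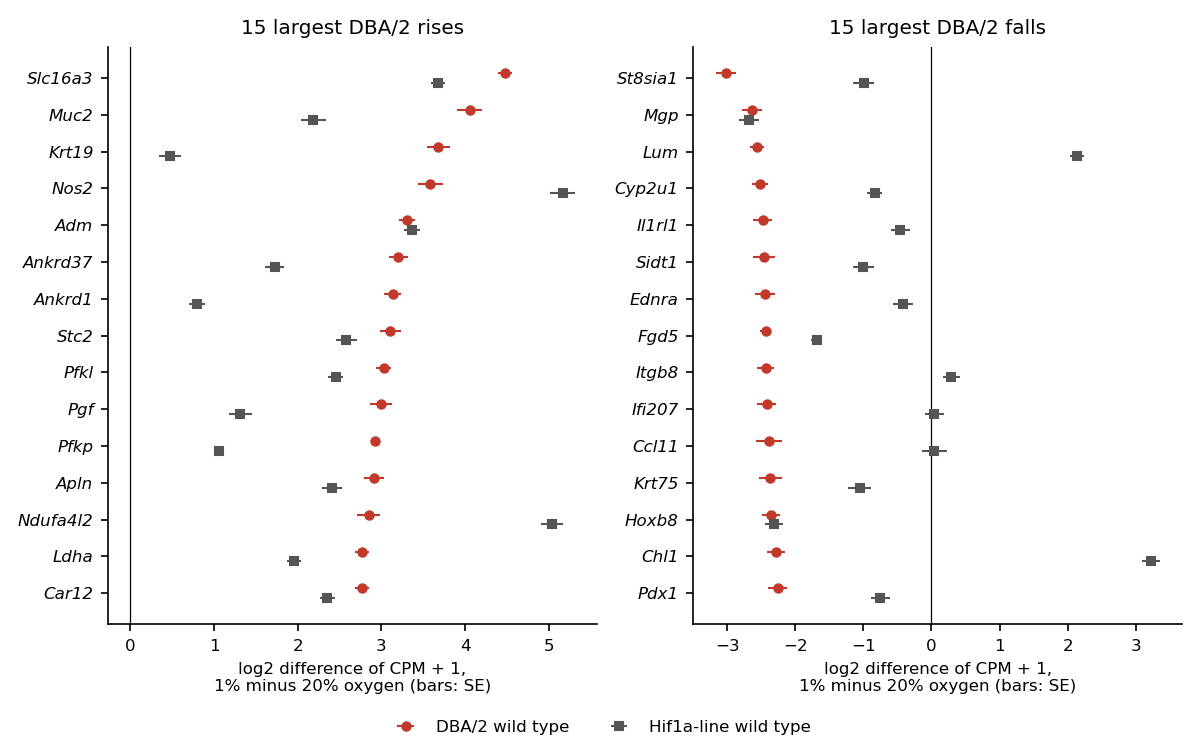
Log2 difference of CPM + 1, 1% minus 20% oxygen, with its standard error for the 15 largest rises and 15 largest falls of DBA/2 cells (red circles, upper symbol of each gene) and for the same genes in Hif1a-line wild type cells (grey squares). The lines nearly coincide for Adm, Mgp and Hoxb8, and Lum and Chl1 lie on opposite sides of 0.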

How the data were processed

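RNA was extracted with the RNeasy Plus Micro Kit, and libraries were made from 200 ng of total RNA with a TruSeq stranded mRNA kit, per the labels' protocols. The submitters' processing notes name cutadapt 1.16, STAR 2.6.0c, HTSeq 0.11.2, DESeq2 1.22.2 and the build mm10. The sources used here do not give the annotation, the strand setting or the treatment of reads with several alignments. The deposited values are CPM of protein-coding genes, made by the authors from counts of whole reads: every value is a whole multiple of what 1 read is worth (100% of values within 0.01 of a whole read).

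Genes that reached 1 CPM in 2 or more of the 16 libraries were kept. limma 3.58.1 in R 4.3.3 was fitted to log2(CPM + 1) with 8 group means and a mean-dependent prior, and p-values were adjusted by Benjamini-Hochberg over 14841 genes at 0.05. Fold changes are on the log2(CPM + 1) scale and understate those of low genes. Standard errors are those of the fit, with n = 2 libraries a group.

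Alternatives were pseudocounts of 0.5 and 0.25, no filter, a minimum of 5 CPM, median-of-ratios and TMM scaling, the compared libraries alone, a replicate block, leaving out each DBA/2 library, and edgeR 4.0.16 (quasi-likelihood) and DESeq2 1.42.0 on the recovered reads. Same-numbered libraries deviated together by a correlation of 0.153 over 2 pairs. The DBA/2 library names repeat the same numbers at both oxygen levels, but no label says that a number marks a shared origin. The main comparison therefore has no block. On simulated data with known changes (50 genes for each size and direction), limma recovered 100% of 2-fold rises and falls. It recovered 92% of 1.5-fold rises and 86% of 1.5-fold falls, with 0.0273% of 14641 unchanged genes called. The changed genes were drawn only from those with a mean of at least 5 CPM in the reference DBA/2 group. The recovery was not broken down by expression level among them. It does not show how well changes in lower genes are found. Few genes were changed in the simulation, whereas 57.4% of the genes tested were called in the real data.

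The genes named were the called genes with the 15 largest rises and falls, given a mean of 5 CPM or more at 1 of the oxygen levels and no overlap between groups, the up to 4 members of each list (48 lists) with the smallest adjusted p and a mean of at least 1 CPM, and Hif1a, Epas1, Arnt, Top1mt, Pdk1, Ndufa4, Ndufa4l2, Cox4i1 and Cox4i2. Further list members were named as examples after their values had been seen. The comparison, the members and the lists were chosen with earlier results of these data known. Promoters come from RefSeq (GRCm38.p6), the same build as mm10.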

Additional observations from a re-analysis of the deposited data

Results flagged for a closer look

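The responses of DBA/2 and Hif1a-line wild type cells to 1% oxygen differed for 27 of the 30 genes with the largest changes in DBA/2 cells, by limma's test of the difference at an adjusted p of 0.05, against 46% of all 14841 genes tested. The values are log2 differences of the responses, DBA/2 minus Hif1a line.

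Among the rises the difference was positive for 12 genes: Krt19 3.21, Ankrd1 2.34, Muc2 1.87, Pfkp 1.87, Pgf 1.68, Ankrd37 1.48, Ldha 0.82, Slc16a3 0.80, Pfkl 0.57, Stc2 0.53, Apln 0.50 and Car12 0.41. It was negative for Ndufa4l2, at -2.19, and for Nos2, at -1.58. Both rose in each line and reached a higher level in the Hif1a line. In either line both were under 1 CPM on average at 20% oxygen.

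Among the falls the difference was negative for all 13 called genes: Chl1 -5.50, Lum -4.70, Itgb8 -2.72, Ifi207 -2.46, Ccl11 -2.43, Ednra -2.03, St8sia1 -2.02, Il1rl1 -2.02, Cyp2u1 -1.69, Pdx1 -1.51, Sidt1 -1.46, Krt75 -1.31 and Fgd5 -0.75. The genes were picked for their size in DBA/2 cells, which favours a difference in that direction. For Stc2, Apln and Car12 the call was lost under some of the alternative settings, with adjusted p-values of up to 0.11, 0.15 and 0.25. The calls of the other 24 held under every alternative run on them, and none of the 27 changed sign. Strain background and feeder marker levels differ between the lines, the library names leave the culture time unclear, and these cannot be told apart.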

How the results depend on the processing

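The counts of genes higher and lower at 1% oxygen stayed within 1.5 times of those reported under every alternative run on all genes. The excess of rises over falls was lost with other scalings: 4187 higher and 4183 lower with median-of-ratios, and 4162 and 4226 with TMM. In edgeR 4411 were higher and 4432 lower, and in DESeq2 3832 and 3810. Counts of at least 2-fold changes depended on the scale. There were 642 higher at a pseudocount of 0.25, 741 higher and 624 lower in edgeR, and 708 higher and 590 lower in DESeq2. The cause was not tested, as these models differ in scaling and fit as well as in the added CPM. The difference between the lines was higher for 2951 genes and lower for 3138 with median-of-ratios scaling, 2896 and 3204 with TMM, 3052 and 3252 in edgeR, and 2314 and 2680 in DESeq2. With 1 DBA/2 library left out at a time, 3812 to 3953 genes were higher and 3120 to 3282 lower, 357 to 403 and 337 to 382 of them at least 2-fold. The difference between the lines was then higher for 3860 to 4009 genes and lower for 1867 to 2053.

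With the replicate number as a block, 4846 genes were higher and 3914 lower, 356 and 349 at least 2-fold, and the difference between the lines was higher for 4783 and lower for 2368. The block changed no call of the 212 named genes. None of them reversed in any alternative. Calls of small changes were lost under some: Arnt and Uhrf2 under either scaling and in both count models, Cdkn2c in DESeq2, and Pdk1, H6pd, Rpe, Uhrf1, Cdkn1b, Cdkn2c and Cdkn2d without 1 or another library. Lists with a median within 0.1 of 0 can change its sign with the scaling.

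There were 2 libraries a group, and 3 reads (0.128 to 0.150 CPM) is the limit of detection for a value of 0.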

Other observations

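Single markers of other cell types moved at 1% oxygen while their lists stayed low. Among the Sertoli cell markers Clu, a secreted chaperone also expressed by other cells, had 19.3 and 16.8 CPM at 1% oxygen, against 4.80 and 5.08 CPM at 20%. Wt1, a factor of Sertoli and other mesodermal cells, had 13.02 and 14.1 CPM at 1% oxygen, against 28.4 and 29.3 CPM at 20%. Gdnf itself was detected, with 5.44 and 5.21 CPM at 1% oxygen, against 3.68 and 2.39 CPM at 20%, and it rose by 0.67 ± 0.14 on the log2 scale. Its receptor genes fell in the same libraries, and GDNF was also supplied in the medium.

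Among genes of pluripotent and early germ cells, Dppa3 had 1.10 and 1.04 CPM at 1% oxygen, against 4.80 and 4.44 CPM at 20%, and Pou5f1 had 1.70 and 1.59 CPM at 1% oxygen, against 4.004 and 3.58 CPM at 20%. Both fell, while Nanog was under 1 CPM in all 4 libraries. Of the 7 tested members of the pluripotency list, however, 2 were higher and only 1 was lower. The 10 pluripotency markers together summed to 175 and 179 CPM at 1% oxygen and 146 and 139 CPM at 20%.

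Outside every list, Prelid2 had 10.7 and 9.66 CPM at 1% oxygen, against 0.559 and 0.896 CPM at 20%, and Rnf225 had 6.09 and 6.85 CPM at 1% oxygen, against 0.605 and 0.427 CPM at 20%. Their log2 differences were 2.70 ± 0.14 and 2.30 ± 0.15. These genes were singled out after their values had been seen.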
